A study of Mus musculus with 119 samples.

Results

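The 1 h and 2 h time points of the LPS response in wild-type (WT) macrophages were compared, to find which genes were still rising, which had begun to resolve and which were newly repressed within that hour. The comparison used 10 of the 119 RNA-seq libraries of the series. There were 4 libraries at 2 h (replicates 4 to 7) and 6 at 1 h (replicates 4 to 9), chosen by their labels for genotype and time. All were of bone marrow-derived macrophages (BMDMs) from C57BL/6(NIMR) mice, grown from femoral marrow in L-cell conditioned medium and given 100 ng/ml LPS. To place each gene in its time course, the WT libraries of unstimulated cells (6) and of cells at 0.5 h of LPS (6) were used, and the same 2 h against 1 h comparison was made in 2 mutants of that strain. These were Map3k8[D270A] cells, whose TPL-2 kinase is without activity (6 libraries at each time), and Elk1-/-Elk4-/- cells, which lack 2 ternary complex factors (4 libraries at each time). The labels put the Elk1-/-Elk4-/- libraries in a separate experiment from the WT libraries, so for them experiment and genotype cannot be told apart. Animal age and sex, and whether each replicate was its own animal, were not given in the sources used here, and p-values therefore measure the spread between these libraries.

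LPS is bound by TLR4 on macrophages and signals through the adaptors MyD88 and TRIF to NF-kB, to MAP kinases and to interferon regulatory factors. Immediate early genes are transcribed within minutes because the factors they need are already in the cell, and many of their mRNAs are short-lived. A later wave needs newly made proteins, and its best known part is the response to interferon-β, which the cells secrete and which acts back on them through JAK kinases and STAT factors. TPL-2 is the kinase that links TLR4 to ERK, and ELK1 and ELK4 are DNA-binding partners of SRF that ERK phosphorylates.

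Values are expression levels per gene on a log2 scale, as deposited by the authors. A difference of 1 on this scale is taken as 2-fold. The transformation behind the values was not given in the sources used here. If differences between libraries were natural logarithms, each would be 1.44 times larger and 2-fold would stand at 0.693. Levels are not corrected for gene length, so they were not compared between genes. Adjusted p-values come from limma's test and are corrected over the 11884 genes tested (Benjamini-Hochberg), and errors are standard errors (SE) of the fit. A gene was called at an adjusted p under 0.05 and a difference of at least 1.

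Macrophage markers were high in all 10 libraries. The mean level of *Lyz2* (lysozyme) was 18.07 at 1 h and 18.15 at 2 h, and that of *Csf1r* (the M-CSF receptor) was 15.22 and 15.20. Of 63 markers of other cell types, 19 passed the filter on low values and 3 were called, all higher at 2 h: *Lcn2*, *Zbtb46* and *Pdgfrb*. Of all genes tested, 4.42% were called higher and 2.16% lower. No erythroid marker passed. The summed linear level of dendritic cell markers ran from 4000 to 4750 at 1 h and from 4890 to 5220 at 2 h, that of stroma and glia markers from 68.8 to 95.5 and from 102 to 122, and that of neutrophil markers from 612 to 1190 and from 692 to 908. *Bst2*, 1 of the dendritic cell markers, is also on the list of interferon-stimulated genes described below. The part of these cell types in the results was not tested. In bulk RNA, fewer cells of a type and less RNA per cell cannot be told apart. The deleted genes were low in Elk1-/-Elk4-/- libraries, where *Elk1* was at 6.32 at 1 h against 9.40 in WT and *Elk4* at 5.76 against 8.04. The D270A allele is a point mutation, so the mRNA level of *Map3k8* does not check it. Replicates 4 to 6 and 7 to 9 differed from each other, and replicate 7 was the only library of the second group at 2 h. At 2 h it was the lowest of the 4 libraries for 68 of 95 genes of the first class described next and for 269 of 415 of the second. At 1 h, replicates 7 to 9 minus replicates 4 to 6 had a median of -0.48 over the first class. Over the other classes described next, this median was smaller and ran from -0.152 to 0.09. Without 2 h replicate 7, 563 genes were called higher and 277 lower. With replicates 4 to 6 alone, 503 were higher and 254 lower.

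From 1 h to 2 h, 525 genes were higher (4.42% of the genes tested) and 257 were lower (2.16%). The 1 h and 2 h libraries did not overlap for 775 of these 782 genes (99.1%, the 782 being 6.58% of the genes tested), against 48.8% of all genes tested. The median difference over all genes tested was 0.003. The shares of 4.42% and 2.16% stand beside every count of called list members given below for this comparison. No list was tested against them. By their course from the unstimulated state, the higher genes comprised 95 that were already called higher at 1 h (still rising), 415 that were not yet called at 1 h (late rising) and 15 that were lower at 1 h (recovering). The lower genes comprised 57 that had been called higher at 0.5 h or 1 h (resolving, where 0.623% of all genes were called higher at 0.5 h and 3.2% at 1 h). A further 146 were first called below the unstimulated level at 2 h (newly repressed). At 1 h these stood at a median of -0.096 against unstimulated cells, with a lowest value of -0.976. Already called lower before 2 h were 6 (further repressed). Another 48 met none of these rules (other falling), and all 48 had a mean above the unstimulated mean at 1 h and below it at 2 h. These classes share the 1 h and the unstimulated libraries, so they are counts and were not tested.

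**Figure D1:**
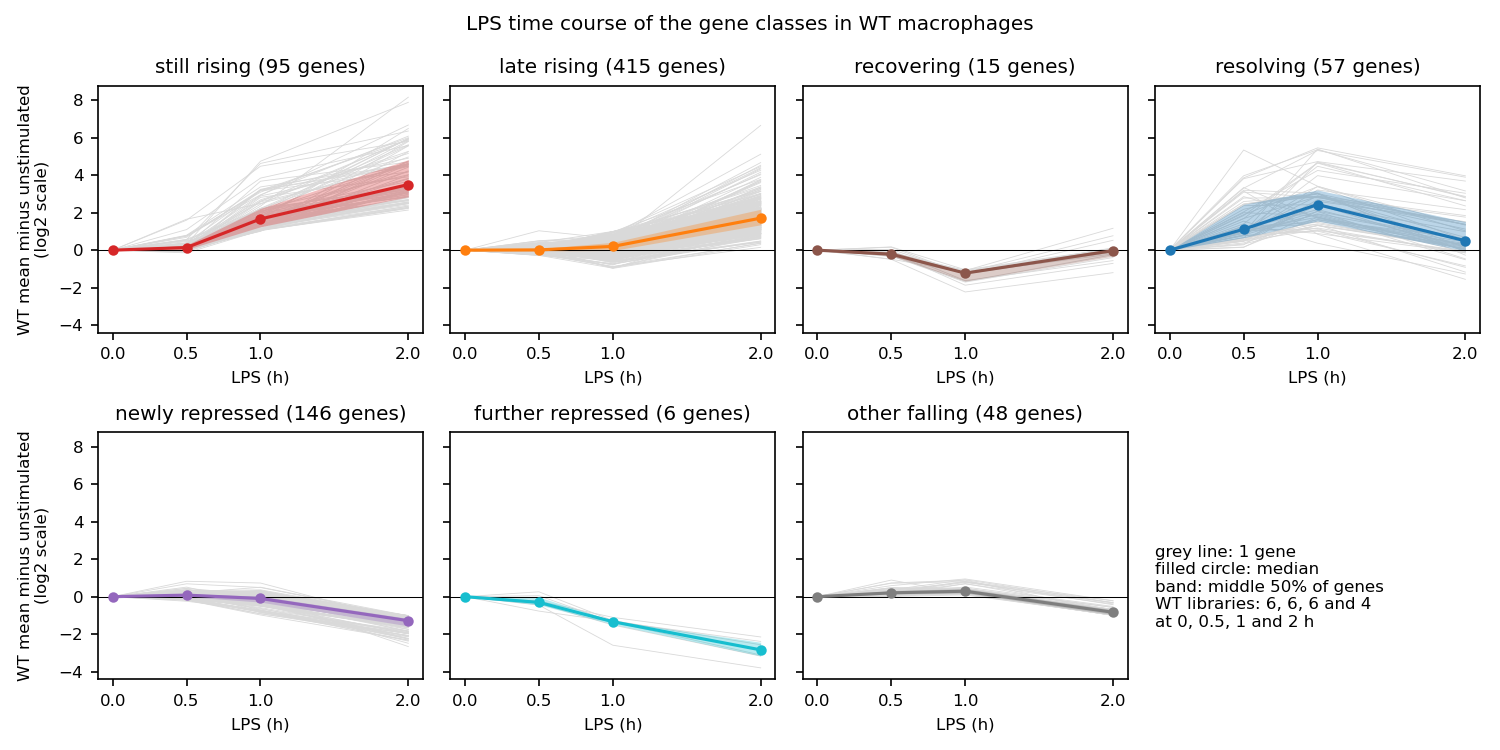
Time course of the 7 gene classes in WT BMDMs. Each grey line is the mean level of 1 gene minus its unstimulated mean (log2 scale) against hours of LPS, filled circles are class medians and bands the middle 50% of genes, over 6, 6, 6 and 4 libraries. Still rising genes went from a median of 1.66 at 1 h to 3.50 at 2 h, and resolving genes from 2.43 to 0.50.

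The still rising genes had covered a median of 50.3% of their 2 h rise, in log2 units, by 1 h. Late rising genes called above the unstimulated level at 2 h (374 of 415) had covered 12.5%. The resolving genes kept a median of 20.7% of their log2 peak at 2 h. Of the 57, 22 were still called above the unstimulated level (7.72% of all genes were), 32 were not called against it and 3 were called below it (3.29% of all genes). Their means peaked at 0.5 h for 9 and at 1 h for 48. In the mutant libraries, which the class rules did not use, 75 of the 95 still rising genes were called higher at 2 h than at 1 h in Map3k8[D270A] cells, where 3.95% of all genes were, and 76 in Elk1-/-Elk4-/- cells, where 4.21% were. For late rising genes the counts were 318 and 318 of 415. For resolving genes, 41 and 50 of 57 were called lower, against 1.49% and 2.20% of all genes. For newly repressed genes 85 and 96 of 146 were called lower.

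The greatest rise between 1 h and 2 h was that of *Nos2*, which encodes inducible nitric oxide synthase. It was at 3.61, 3.73 and 4.37 at 1 h (lowest, median and highest of the 6 libraries, as throughout) and at 10.51, 10.31, 10.10 and 9.66 in the 4 libraries at 2 h, given in the order of replicates 4 to 7. Its libraries did not overlap, which the choice of named class genes required, and the difference was 6.31 ± 0.45 (SE, adjusted p = 4.46e-18). It lay at 3.49 ± 0.22 (SD, n = 6) in unstimulated cells, so nearly all of the change fell in the second hour. *Adamts4*, a secreted protease of the cartilage proteoglycan aggrecan, was at 5.26, 5.83 and 7.05 at 1 h and 11.99, 11.85, 11.46 and 11.70 at 2 h, a difference of 5.80 ± 0.29 (SE, adjusted p = 3.04e-24). *Fscn1*, the actin-bundling protein fascin, was at 4.97, 5.60 and 6.25 at 1 h and 10.91, 10.60, 10.59 and 9.81 at 2 h, with a difference of 4.85 ± 0.27 (SE, adjusted p = 1.33e-22). In both, all 2 h libraries lay more than 3 units above the highest 1 h library. The other still rising genes of the largest difference were *Cxcl11* (4.57), *Nudt17* of the Nudix hydrolase family (4.45), *Sphk1* (4.24) and the fibrillar collagen gene *Col27a1* (4.01). Among late rising genes they were *Mab21l3* (4.30), *Il2ra*, the α-chain of the IL-2 receptor (4.15), *Mx2* (4.13), *Cxcl9* (3.93) and *Ifit1* (3.84).

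**Figure D2:**
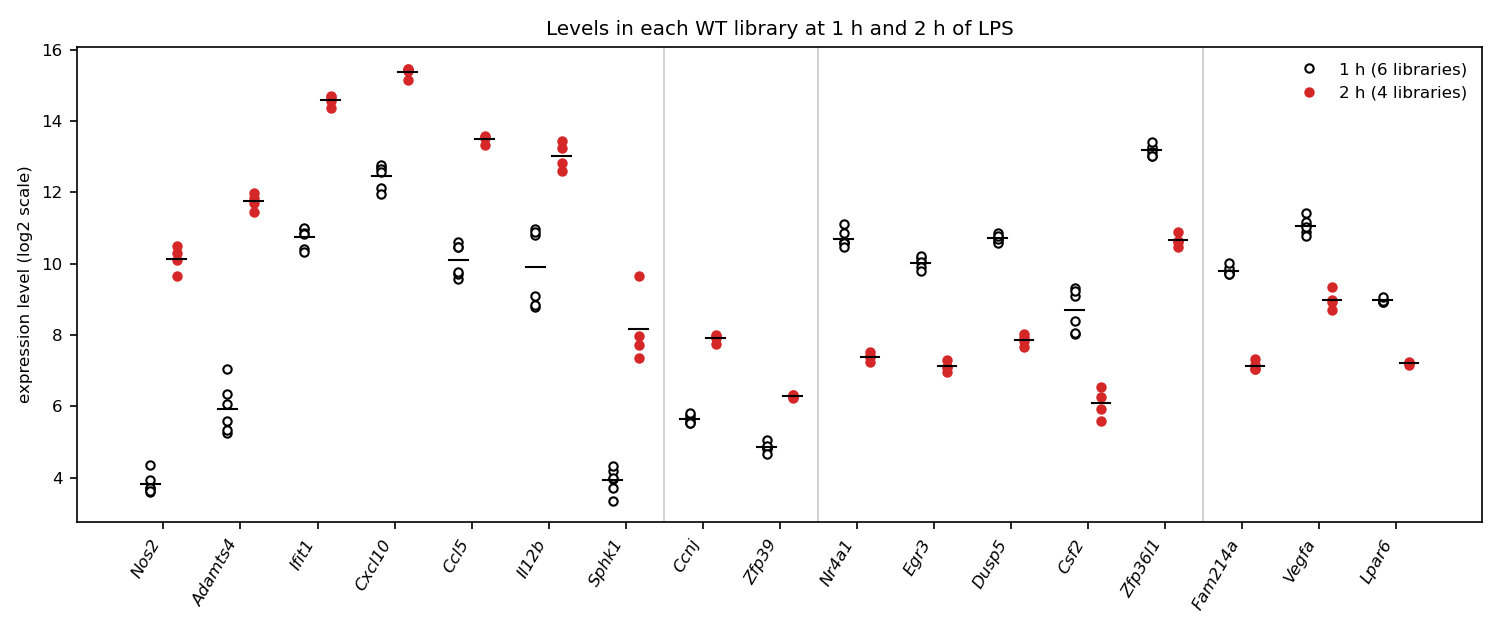
Expression level (log2 scale) of 17 genes in each WT library, open circles at 1 h (6 libraries) and filled circles at 2 h (4 libraries), with bars at the means. Grey lines separate rising, recovering, resolving and repressed genes. The 1 h and 2 h circles do not overlap for any of the 17, but the named class genes were chosen among those without overlap. *Il12b* and *Adamts4* show the widest spread at 1 h.

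Most listed interferon-stimulated genes rose. Of 50 on the list, all of which passed the filter, 35 were called higher and 0 lower. All 50 were higher at an adjusted p under 0.05 without regard to size, where 33.5% of all genes were. Their median difference was 1.56, against 0.003 over all genes. At 1 h the same list stood at a median of 0.02 above the unstimulated level, and 31 of the 35 called genes were late rising. *Ifit1*, whose product binds viral RNA, was at 10.34, 10.86 and 11.00 at 1 h and 14.70, 14.56, 14.67 and 14.38 at 2 h, a difference of 3.84 ± 0.16 (SE, adjusted p = 4.05e-28). *Mx2* was at 7.62, 8.02 and 8.29 at 1 h and 12.18, 12.29, 12.30 and 11.58 at 2 h, and *Mx1* at 9.46, 9.72 and 10.12 at 1 h and 13.63, 13.69, 13.71 and 12.85 at 2 h. The Mx family is known for antiviral GTPases, but RefSeq annotates both genes as transcribed pseudogenes in GRCm38.p6. Replicate 7 was the lowest of the 2 h libraries for all 3 genes and still lay above every 1 h library. *Gbp5*, a guanylate-binding protein, had begun earlier and went from 9.04, 9.74 and 10.36 at 1 h and 13.51, 13.40, 13.60 and 13.01 at 2 h. The 15 members not called included *Irf7*, *Ddx58* and *Oas3*, with differences of 0.83, 0.88 and 0.40. *Ifnb1*, which encodes interferon-β itself, had a mean of 4.61 in unstimulated cells, 7.95 at 1 h and 8.24 at 2 h. Its 1 h and 2 h libraries overlapped, and its difference of 0.28 ± 0.14 (SE, adjusted p = 0.0758) was not called.

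The binding site of the interferon-activated factor ISGF3, the interferon-stimulated response element, has a core written as GAAA, 2 bases of any kind and GAAA. It was searched on both strands of the 300-base promoter windows of RefSeq (250 bases before the transcript start to 50 after, GRCm38.p6), of which 12107 belonged to 9519 tested genes. Of the windows of listed interferon-stimulated genes, 50.0% (23 of 46) held it, against 3.22% of all windows. The windows of *Ifit1*, *Gbp5* and *Rsad2* are shown, as the listed genes with the core whose difference was greatest, with the core in capitals. *Rsad2* encodes the antiviral enzyme viperin and differed by 3.55. In each window the core stands on the opposite strand, so it reads TTTC, 2 bases and TTTC here. They lie at chr19:34640639-34640938 (plus strand), chr3:142496684-142496983 (plus strand) and chr12:26456403-26456702 (minus strand).
Ifit1: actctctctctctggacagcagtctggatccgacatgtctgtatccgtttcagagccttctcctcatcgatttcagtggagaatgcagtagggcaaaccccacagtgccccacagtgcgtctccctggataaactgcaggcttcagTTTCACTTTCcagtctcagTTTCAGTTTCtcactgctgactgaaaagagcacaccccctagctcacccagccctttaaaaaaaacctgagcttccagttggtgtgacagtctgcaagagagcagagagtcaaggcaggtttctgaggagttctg
Gbp5: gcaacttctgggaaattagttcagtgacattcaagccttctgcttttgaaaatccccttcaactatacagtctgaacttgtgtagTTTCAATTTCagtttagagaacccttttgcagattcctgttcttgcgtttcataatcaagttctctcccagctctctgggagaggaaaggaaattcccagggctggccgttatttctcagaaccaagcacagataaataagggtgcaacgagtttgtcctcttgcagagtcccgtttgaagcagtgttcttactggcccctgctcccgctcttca
Rsad2: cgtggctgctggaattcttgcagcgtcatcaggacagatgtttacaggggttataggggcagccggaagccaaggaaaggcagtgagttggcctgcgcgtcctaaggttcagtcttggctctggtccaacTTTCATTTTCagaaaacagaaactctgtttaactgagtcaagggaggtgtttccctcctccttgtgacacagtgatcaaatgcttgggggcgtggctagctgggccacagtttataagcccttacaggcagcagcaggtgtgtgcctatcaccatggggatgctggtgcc
*Ifit1* holds the core in 2 places within its window and the other two once each. These matches are a description of the sequence, and no binding was measured.

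Chemokine genes went both ways. Of 21 tested, 10 were higher and 2 lower, with a median difference of 0.92. *Ccl5*, which attracts T cells and monocytes, was at 9.57, 10.12 and 10.61 at 1 h and 13.52, 13.54, 13.58 and 13.32 at 2 h, and *Cxcl10*, a ligand of CXCR3, at 11.96, 12.62 and 12.76 at 1 h and 15.47, 15.41, 15.47 and 15.14 at 2 h. *Cxcl9*, another CXCR3 ligand, and its relative *Cxcl11* were at 4.2, 4.53 and 4.86 at 1 h and 8.80, 8.67, 8.45 and 7.84 at 2 h, and at 3.81, 4.67 and 5.02 at 1 h and 9.35, 8.97, 9.44 and 8.45 at 2 h, respectively. The differences were 3.93 for *Cxcl9*, 2.91 for *Cxcl10* and 4.57 for *Cxcl11*. RefSeq annotates *Cxcl11* as a transcribed pseudogene in GRCm38.p6, the C57BL/6 reference, so its transcript is not taken to encode a ligand here. The 2 that fell, *Cxcl1* and *Cxcl2*, are neutrophil attractants, with differences of -1.49 and -2.20. *Cxcl3*, a close relative of both, was among the genes called higher. Sequence similarity among these 3 could have split reads between them in the authors' counting.

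Cytokine genes went both ways, with 7 of 21 called higher and 6 lower (median 0.28). The higher genes were *Il27*, *Tnfsf15*, *Il12b*, *Il6*, *Ebi3*, *Il15* and *Il1rn*. *Il12b*, the p40 subunit shared by IL-12 and IL-23, was at 8.78, 9.95 and 10.97 at 1 h and 13.44, 13.25, 12.83 and 12.61 at 2 h. Its 1 h libraries spread the most of the named genes, with replicates 4 to 6 at 10.97, 10.80 and 10.88 and replicates 7 to 9 at 9.10, 8.78 and 8.85. All 2 h libraries lay above them, and the difference was 3.14 ± 0.28 (SE, adjusted p = 2.04e-14). *Il27*, the p28 subunit of IL-27, was at 6.61, 7.20 and 7.91 at 1 h and 11.22, 11.15, 11.27 and 10.46 at 2 h, and *Tnfsf15*, a TNF family ligand, at 6.79, 7.47 and 7.89 at 1 h and 10.94, 10.79, 10.82 and 10.59 at 2 h. The 6 that fell were *Csf2*, *Il23a*, *Tnfsf9*, *Osm*, *Lif* and *Tnf*, all resolving. *Gdf15*, a TGF-β family cytokine outside the list and also resolving, was at 12.26, 12.69 and 13.11 at 1 h and 9.58, 9.75, 9.41 and 9.53 at 2 h, a difference of -3.08 ± 0.12 (SE, adjusted p = 1.06e-28). *Csf2*, which encodes GM-CSF, was at 8.03, 8.75 and 9.31 at 1 h and 6.27, 5.94, 5.59 and 6.55 at 2 h, a difference of -2.61 ± 0.22 (SE, adjusted p = 3.64e-15). *Tnf* fell by less, with means of 16.26 at 1 h and 15.22 at 2 h, and remained called above its unstimulated mean of 11.54. The uncalled *Il1b*, *Il1a* and *Il10* had differences of -0.48, -0.70 and -0.34.

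Among enzymes of macrophage effector function, 14 of 27 were higher and 1, *Plau*, was lower (median 1.1). Besides *Nos2*, they included *Slc7a2*, a transporter of its substrate arginine, at 6.87, 7.33 and 7.99 at 1 h and 11.02, 10.72, 11.29 and 10.78 at 2 h. *Lipg*, the endothelial lipase, was at 4.71, 5.10 and 5.41 at 1 h and 8.97, 8.98, 9.01 and 8.65 at 2 h. *Sphk1*, the kinase that makes sphingosine 1-phosphate, was at 3.36, 3.99 and 4.34 at 1 h and 7.72, 7.97, 9.66 and 7.35 at 2 h. Replicate 6 gave the highest 2 h value of *Sphk1*, and without that library its difference of 4.24 was 3.75. *Ptgs2*, the inducible cyclooxygenase, had means of 12.49 and 12.53 at 1 h and 2 h, with overlapping libraries, and was not called.

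Of 26 receptors for costimulation and adhesion, 12 were called higher and 0 lower (median 0.95). At an adjusted p under 0.05 alone in limma's test, 20 were higher and 4 lower, where 33.5% and 31.7% of all genes were. *Cd69*, an early activation antigen, was at 8.77, 8.94 and 9.15 at 1 h and 11.15, 10.87, 10.93 and 10.90 at 2 h, *Il4ra*, the α-chain of the IL-4 receptor, at 10.80, 10.91 and 11.02 at 1 h and 12.72, 12.85, 13.36 and 12.37 at 2 h, and *Tnfrsf9*, the costimulatory receptor 4-1BB, at 2.07, 2.32 and 2.55 at 1 h and 3.97, 4.03, 4.07 and 3.99 at 2 h. *Slamf1*, a self-ligand receptor, went from a 1 h median of 2.07 to between 3.72 and 3.88. The times did not overlap for *Cd69* and *Il4ra*. The WT means of *Slamf1* and *Tnfrsf9* were under the filter value before 2 h, so these genes passed through the time at which they were high, and their lack of overlap is no support. Receptors for small ligands gave 7 called higher and 2 lower of 32 (median 0.08), and 4 lower without 2 h replicate 7. *Adora2a*, a receptor for adenosine, was at 5.90, 6.27 and 6.57 at 1 h and 9.86, 9.75, 9.85 and 9.49 at 2 h, a difference of 3.49 ± 0.17 (SE, adjusted p = 1.65e-25). *Fpr2*, a formyl peptide receptor, was at 4.97, 5.25 and 5.30 at 1 h and 7.73, 7.61, 8.03 and 7.37 at 2 h. *Ptger2*, the prostaglandin E2 receptor EP2, and *Hcar2*, a receptor for β-hydroxybutyrate and niacin, had differences of 1.73 and 1.62. Of the 2 that fell, *Cxcr4*, the receptor of CXCL12, had a difference of -1.53.

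Of 21 NF-kB subunits and feedback genes, 4 were higher and 1 was lower (median 0.48). *Bcl3*, a nuclear IkB protein, was at 10.14, 10.43 and 10.79 at 1 h and 12.01, 12.15, 12.24 and 11.85 at 2 h, *Nfkb1* at 11.75, 11.93 and 12.20 at 1 h and 13.56, 13.57, 13.57 and 13.37 at 2 h, and *Nfkb2* at 12.48, 12.66 and 12.93 at 1 h and 13.76, 13.83, 13.78 and 13.63 at 2 h. *Nfkbid*, another nuclear IkB protein, went the other way and was at 11.34, 11.79 and 11.97 at 1 h and 10.18, 10.23, 10.14 and 9.66 at 2 h, a difference of -1.66 ± 0.14 (SE, adjusted p = 8.57e-16). The feedback inhibitors *Nfkbia* and *Tnfaip3* were near their 1 h levels, with uncalled differences of -0.14 and -0.27. Of 32 genes of LPS and pattern recognition, 5 were higher and 1, *Nlrp3*, was lower (median 0.33). The ubiquitin ligase gene *Peli1* differed by 2.00, the adaptor gene *Tirap* by 1.30, *Tlr2* by 1.19 and the kinase gene *Ikbke* by 1.08. Within replicates 4 to 6, *Nfkb2* (0.95) and *Tlr2* (0.85) were under the threshold, and 2 of the NF-kB list and 3 of the recognition list were called higher. With quantile normalization 2 were called higher in each list, and 2 NF-kB genes lower. Of 23 interferon regulatory factor, JAK, STAT and SOCS genes, 6 were higher and 1, *Irf4*, was lower (median 0.38). *Cish* and *Socs1*, feedback inhibitors of cytokine receptors, were at 7.39, 7.60 and 8.04 at 1 h and 10.73, 11.10, 11.15 and 10.24 at 2 h, and at 6.82, 7.02 and 7.21 at 1 h and 10.18, 10.38, 10.23 and 9.64 at 2 h, respectively. *Stat5a* differed by 2.71 and *Jak2* by 2.54.

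**Figure D3:**
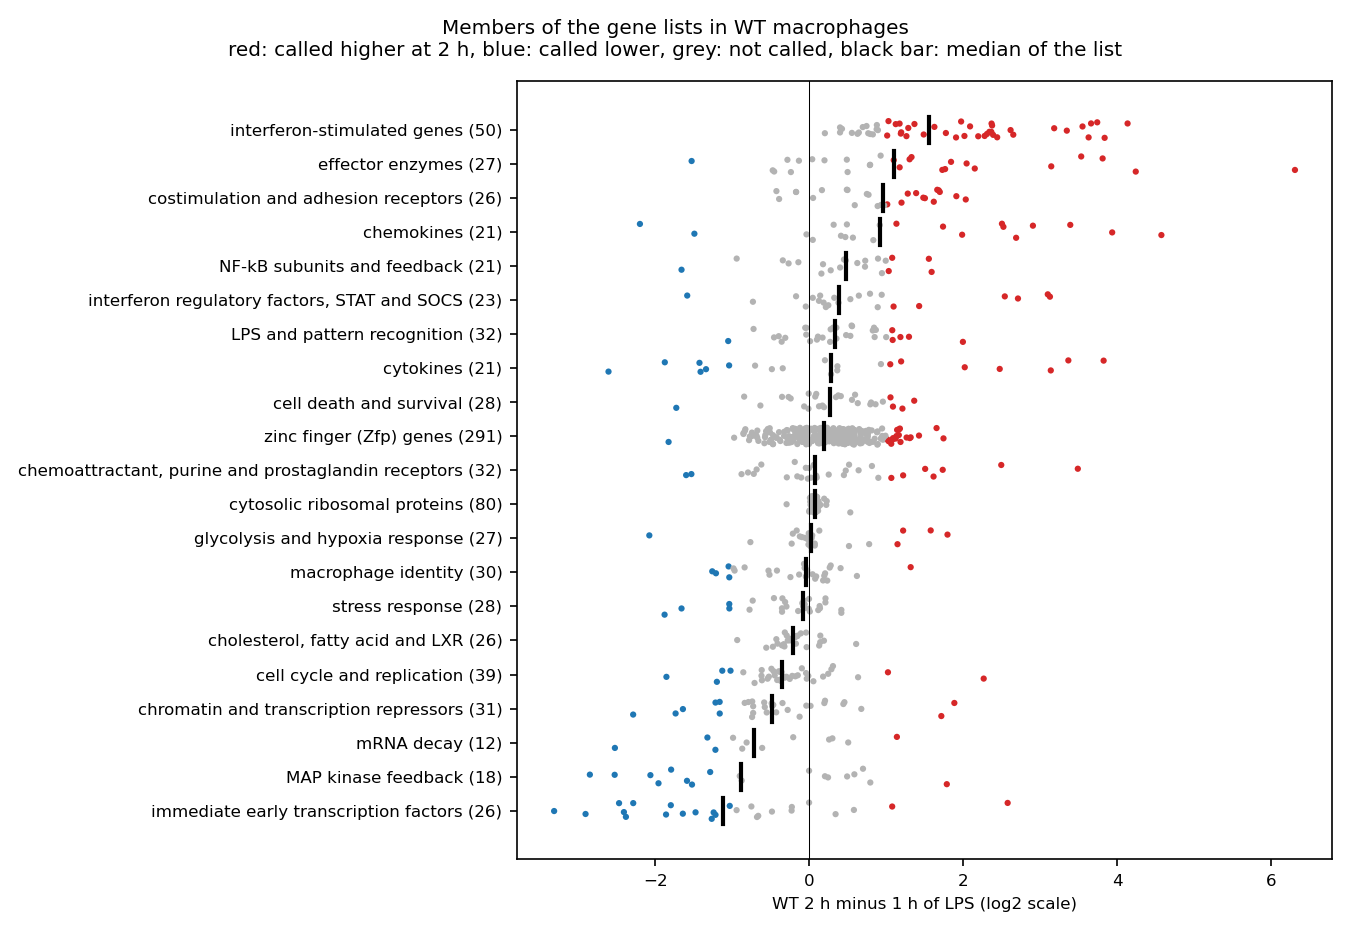
WT 2 h minus 1 h difference (log2 scale) of every tested member of 21 gene lists, 1 point a gene, ordered by the list median (black bar). Red points were called higher, blue lower and grey not called. The interferon-stimulated genes have the highest median (1.56) and the immediate early transcription factors the lowest (-1.12).

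Immediate early transcription factors fell, in 14 of 26 members, while 2 rose (median -1.12). *Nr4a1*, an orphan nuclear receptor, was at 10.48, 10.60 and 11.11 at 1 h and 7.24, 7.39, 7.54 and 7.42 at 2 h, a difference of -3.31 ± 0.15 (SE, adjusted p = 3.74e-26). All 4 libraries at 2 h lay below its unstimulated mean of 7.66. *Egr3*, a zinc finger factor, was at 9.79, 10.04 and 10.21 at 1 h and 6.96, 7.31, 7.11 and 7.12 at 2 h, *Egr2* at 12.27, 12.53 and 12.71 at 1 h and 9.96, 10.02, 10.02 and 10.21 at 2 h, and *Egr1* at 11.19, 11.36 and 11.62 at 1 h and 8.99, 9.28, 9.27 and 8.53 at 2 h. *Egr1* had already fallen from a mean of 13.32 at 0.5 h, whereas the means at 0.5 h and 1 h were 12.46 and 12.52 for *Egr2* and 9.45 and 10.03 for *Egr3*. *Fos* likewise had its peak at 0.5 h, with means of 13.84, 11.54 and 9.13 at 0.5, 1 and 2 h, and at 2 h it lay below its unstimulated mean of 10.69. The others that fell were *Btg2*, *Myc*, *Fosb*, *Jun*, *Fosl1*, *Ier2*, *Klf4*, *Maff* and *Junb*. The 2 that rose were *Mafk* and *Nr4a3*, the latter from 5.23, 5.67 and 6.25 at 1 h and 8.51, 8.32, 8.22 and 7.95 at 2 h. So the relatives *Nr4a1* and *Nr4a3* moved in opposite directions in the same libraries.

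Feedback regulators of MAP kinases were lower in 8 of 18 (median -0.89), and 1, *Map3k8*, was higher. *Dusp5*, a phosphatase of ERK, was at 10.57, 10.73 and 10.87 at 1 h and 7.67, 7.84, 8.03 and 7.95 at 2 h, and *Dusp8*, a phosphatase of JNK and p38, at 9.17, 9.27 and 9.47 at 1 h and 6.71, 7.09, 6.53 and 6.74 at 2 h. *Dusp4* and the receptor kinase inhibitor *Spry1* changed by -1.96 and -2.06, and *Errfi1*, *Spry2*, *Gadd45a* and *Dusp6* were also called. *Map3k8*, which encodes TPL-2, had means of 9.56 at 1 h and 11.35 at 2 h, a difference of 1.79 ± 0.06 (SE, adjusted p = 9.84e-32). Of 12 genes of mRNA decay, 3 were lower, and all were of the *Zfp36* family, whose proteins bind AU-rich elements and speed the loss of the mRNA. *Zfp36l1* was at 13.01, 13.17 and 13.40 at 1 h and 10.48, 10.60, 10.90 and 10.64 at 2 h, *Zfp36* at 14.49, 14.73 and 14.96 at 1 h and 13.35, 13.48, 13.64 and 13.22 at 2 h, and *Zfp36l2* at 11.42, 11.51 and 11.74 at 1 h and 10.28, 10.43, 10.24 and 10.32 at 2 h. *Arid5a*, an RNA-binding protein known to stabilize *Il6* mRNA, was higher (1.14). Among 31 genes of chromatin and transcription repression, 6 were lower and 2 higher (median -0.49). *Kdm6b*, a histone H3 lysine demethylase, was at 11.87, 12.08 and 12.44 at 1 h and 9.72, 9.95, 9.91 and 9.73 at 2 h, and *Id3*, an inhibitor of basic helix-loop-helix factors, at 8.58, 8.77 and 9.05 at 1 h and 6.98, 7.13, 7.08 and 7.00 at 2 h. The corepressor gene *Tle3* and the zinc finger gene *Zbtb46* rose by 1.89 and 1.72.

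Many short-lived mRNAs carry AU-rich elements in the 3′ untranslated region (UTR). The nonamer TTATTTATT was counted on the sense strand of the longest annotated 3′ UTR of each gene (GENCODE vM21). It was present in 20 of 56 resolving genes (35.7%), against 8.03% of 11391 tested genes, 10.6% of still rising and 9.77% of late rising genes. The median 3′ UTR had 1110 bases in resolving genes and 1173 in all genes, and the part of its length was not tested. The 20 were *Tnf*, *Csf2*, *Cxcl1*, *Cxcl2*, *Lif*, *Il23a*, *Areg*, *Fos*, *Maff*, *Zfp36*, *Zfp36l1*, *Dusp8*, *Plk2*, *Plk3*, *Ppp1r15a*, *Phlda1*, *Mdm2*, *Jag1*, *Arl5b* and *Zswim4*. The first nonamer of the 5 with the greatest fall is shown in capitals within 30 bases of the UTR, on the sense strand (GRCm38), at chr11:54247328-54247357 (minus strand), chr7:142081714-142081743 (minus strand), chr12:80108166-80108195 (minus strand), chr12:85477103-85477132 (plus strand) and chr5:90905316-90905345 (plus strand).
Csf2: ttttaaatatTTATTTATTtatttatttat
Dusp8: tttcgattttTTATTTATTtaagctagtga
Zfp36l1: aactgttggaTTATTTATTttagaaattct
Fos: tgttttcaatTTATTTATTaagatggattc
Cxcl2: gagagttcacTTATTTATTtatctatgtat
*Csf2* and *Cxcl2* each held 4 copies, where copies that share bases were counted separately. The *Csf2* stretch shown holds overlapping copies of which only the first is in capitals. mRNA half-life was not measured here, and a match is not a shown site of decay.

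Promoters of the classes also differed in the motifs they held. The cyclic AMP response element TGACGTCA stood in 18.5% of the windows of resolving genes (10 of 54), against 3.11% of all windows, 1.06% of those of still rising and 1.90% of those of late rising genes. The 10 genes were *Areg*, *Arl5b*, *Btg2*, *Dusp8*, *Errfi1*, *Maff*, *Nfkbid*, *Plk2*, *Ppp1r15a* and *Slc25a25*. Windows of *Dusp8*, a stress kinase phosphatase, and *Btg2*, an antiproliferative gene, are shown as the 2 with the greatest fall, with the motif in capitals, at chr7:142095235-142095534 (minus strand) and chr1:134079106-134079405 (minus strand).
Dusp8: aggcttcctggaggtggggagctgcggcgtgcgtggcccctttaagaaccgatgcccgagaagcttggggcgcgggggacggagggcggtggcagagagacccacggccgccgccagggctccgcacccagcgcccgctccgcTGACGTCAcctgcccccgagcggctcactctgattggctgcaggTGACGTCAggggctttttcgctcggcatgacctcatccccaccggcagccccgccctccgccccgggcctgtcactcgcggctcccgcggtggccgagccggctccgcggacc
Btg2: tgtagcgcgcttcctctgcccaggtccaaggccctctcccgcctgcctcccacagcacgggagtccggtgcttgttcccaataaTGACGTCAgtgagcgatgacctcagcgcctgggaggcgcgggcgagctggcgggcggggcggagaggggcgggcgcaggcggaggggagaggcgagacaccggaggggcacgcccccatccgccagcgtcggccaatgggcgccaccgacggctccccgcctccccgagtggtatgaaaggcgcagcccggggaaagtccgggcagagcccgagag
A kappaB site written as GGG, 2 bases of any kind and TTTCC was in 9.57% of windows of still rising and 9.26% of resolving genes, against 2.14% of late rising genes and 1.76% of all. By gene these shares were 8.11%, 12.2%, 2.59% and 2.1%, with resolving genes above still rising genes. The CArG box bound by SRF was in 11.1% of windows of resolving genes and 1.22% of all, and these windows belonged to only 3 genes, *Dusp5*, *Egr2* and *Zfp36*. Counted by gene, the share was 7.32% of resolving genes and 1.48% of all. An AP-1 site written TGANTCA was in 13.8% of windows of still rising and 10.5% of late rising genes, against 5.26% of all. The ISRE core was in 8.51% and 8.10% of windows of these classes and in 2.99% of windows of newly repressed genes. Motifs could share bases, and a window could count for several of them. All motifs were searched on both strands, a match is not a shown binding site, and no test was run. Resolving genes were also short, with a median genomic span of 7.42 kb and 4 exons, against 22.6 kb and 9 exons over all genes tested. Newly repressed genes spanned a median of 39.6 kb and other falling genes 59.7 kb.

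**Figure D4:**
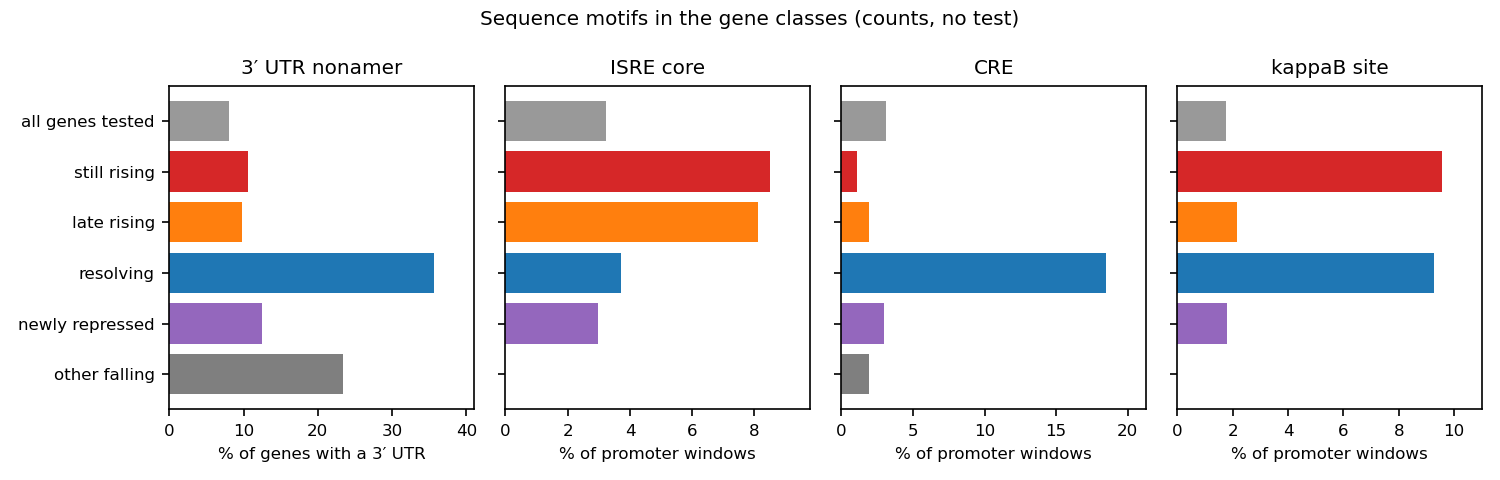
Share of genes with the AU-rich nonamer in the 3′ UTR, and share of promoter windows with the ISRE core, the cyclic AMP response element (CRE) and the kappaB site, for 5 classes (recovering and further repressed genes left out for their small number) and over all genes tested. Bars start at 0 and no test was run. Resolving genes have the longest bars for the nonamer (35.7%) and the CRE (18.5%).

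The recovering class was small and mostly of 1 kind. Of its 15 genes, 10 were zinc finger genes of the *Zfp* series, which made up 2.45% of the genes tested. *Zfp39* had a mean of 6.53 in unstimulated cells and was at 4.66, 4.88 and 5.07 at 1 h and 6.23, 6.32, 6.33 and 6.27 at 2 h, and *Zfp870* was at 5.07, 5.14 and 5.17 at 1 h and 6.45, 6.29, 6.49 and 6.54 at 2 h from an unstimulated mean of 6.83. The cyclin gene *Ccnj* had the greatest difference, 2.26 ± 0.07 (SE, adjusted p = 3.25e-32), and at 5.53, 5.63 and 5.82 at 1 h and 8.0, 7.91, 7.97 and 7.75 at 2 h passed its unstimulated mean of 6.74. *Csrnp2*, a nuclear protein gene, differed by 1.81, the transcription cofactor gene *Sertad3* by 1.35 and the transcribed pseudogene *4632415L05Rik* by 1.95. Only 1 of the 15 was still called below the unstimulated level at 2 h. Over all 291 *Zfp* genes tested, the median difference was 0.19 from 1 h to 2 h and -0.47 from unstimulated cells to 1 h, when 44 of the 112 genes called lower (0.942% of those tested) were *Zfp* genes. The most changed of the list were *Zfp811* (1.74, with all 1 h libraries under the filter value), *Zfp319* (1.65) and *Zfp395*, which changed by -1.83. Without 2 h replicate 7, 2 genes of the list were called lower in place of 1. The class rule itself asks for a fall by 1 h and a rise after it, so the return is no finding. In Map3k8[D270A] libraries 11 of the 15 were called higher, where 3.95% of all genes were. In Elk1-/-Elk4-/- libraries 8 of the 15 were, against 4.21% of all genes.

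Of the newly repressed genes, *Fam214a* had the greatest fall, at 9.70, 9.78 and 10.01 at 1 h and 7.05, 7.16, 7.04 and 7.33 at 2 h, a difference of -2.66 ± 0.07 (SE, adjusted p = 8.48e-37). *Irf2bp2*, a transcriptional corepressor, was at 10.73, 11.04 and 11.18 at 1 h and 8.65, 9.04, 8.75 and 8.90 at 2 h, and *Vegfa*, the angiogenic growth factor, at 10.78, 11.07 and 11.41 at 1 h and 8.94, 8.97, 9.35 and 8.70 at 2 h. *Vegfa* had been above its unstimulated mean of 10.34 at 0.5 h (11.16) without being called. The p53-induced gene *Trp53inp1* changed by -1.88, *Fam110b* by -1.86 and the clock gene *Per1* by -1.84. Among 30 genes of macrophage identity, 4 were lower and 1 was higher (median -0.05). *Cebpa*, a myeloid transcription factor, was at 10.31, 10.37 and 10.44 at 1 h and 9.37, 9.38, 9.28 and 9.29 at 2 h. *Fli1* and *Bcl6* fell as well, while *Cebpd*, a related factor of the inflammatory response, was higher, at 8.55, 8.74 and 9.02 at 1 h and 10.04, 10.21, 10.28 and 9.83 at 2 h. *Csf1r*, *Itgam* and *Cd68* differed by -0.03, -0.02 and 0.09 and were not called.

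The 6 further repressed genes were the lysophosphatidic acid receptor gene *Lpar6*, the cannabinoid receptor gene *Cnr2*, the ERK phosphatase gene *Dusp6*, the arrestin-domain gene *Arrdc3*, the receptor gene *Cd300lb* and the pseudogene *Hmga2-ps1*. *Lpar6* was at 8.93, 8.95 and 9.07 at 1 h and 7.21, 7.22, 7.26 and 7.16 at 2 h from an unstimulated mean of 10.32, and *Cnr2* at 8.16, 8.27 and 8.36 at 1 h and 6.52, 6.75, 6.52 and 6.62 at 2 h from 9.77. *Dusp6* had means of 9.93, 10.19, 8.65 and 7.37 at 0, 0.5, 1 and 2 h. *Dusp4*, *Dusp5* and *Dusp8*, by contrast, were called above their unstimulated levels at 1 h. *Cd300lb* was under the threshold within replicates 4 to 6 (-0.97). Reads of *Hmga2-ps1* could have come from its parent gene, and its value is uncertain. Among other falling genes, *Pmaip1*, a cell death gene of the BCL2 family, was at 9.87, 10.04 and 10.17 at 1 h and 8.18, 8.21, 8.14 and 8.66 at 2 h. *Stil*, a centriole gene, changed by -1.41, the translational regulator *Cpeb2* by -1.35, the peptidase gene *Lmln* by -1.26, the proton-sensing receptor gene *Gpr65* by -1.25 and the kinase gene *Nuak2* by -1.23.

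Of 39 cell cycle and replication genes, 2 were higher and 4 lower (median -0.36), where 4.42% and 2.16% of all genes were. The number called higher was near the share over all genes, and it was 1 without 1 h replicate 5 or 6 or 2 h replicate 7. *Ccnd2*, a D-type cyclin, was at 9.30, 9.61 and 9.86 at 1 h and 11.86, 11.66, 12.03 and 11.87 at 2 h, whereas *E2f2*, *Cdc6* and *Plk3* changed by -1.2, -1.13 and -1.85. Of 28 genes of the stress response, 4 were lower and 0 higher (median -0.08), with differences for the pseudokinase gene *Trib1* of -1.88, *Sesn1* of -1.66, *Sesn2* of -1.04 and *Ppp1r15a* of -1.04. *Sesn2* was under the threshold with replicates paired (-0.97) or without 1 h replicate 8 (-0.97), and *Ppp1r15a* without 1 h replicate 6 (-1.0) or 2 h replicate 7 (-0.98). Of 28 death and survival genes, 4 were higher and 1 lower (median 0.27). The survival genes *Bcl2a1a* and *Bcl2a1d* rose by 1.36 and 1.21, are near-identical copies whose reads the counting may have divided, and so are uncertain. *Casp4*, the caspase that senses cytosolic LPS, differed by 1.09. Within replicates 4 to 6, *Bcl2a1d* (0.88) and *Casp4* (0.92) were under the threshold and 1 gene of this list was called higher. Of 27 genes of glycolysis and the hypoxia response, 4 were higher and 1 lower (median 0.03): the glycolytic regulator *Pfkfb3* differed by 1.80, the adenylate kinase gene *Ak4* by 1.58 and the sugar transporter gene *Slc2a6* by 1.22, which was under the threshold within replicates 4 to 6 (0.98). In limma's test, no gene was called in either direction among 26 genes of cholesterol and fatty acid metabolism and among 80 cytosolic ribosomal protein genes. At an adjusted p under 0.05 alone, 3 of the former were higher and 10 lower, and 17 of the latter were higher and 0 lower. At that threshold 33.5% of all genes were higher and 31.7% lower. The list medians were -0.21 and 0.07.

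The change from 1 h to 2 h was then compared with that in mutant macrophages by an interaction term. It differed from Map3k8[D270A] cells for 32 genes (0.269% of those tested), in 27 of which the WT value was greater (0.227%) and in 5 lower (0.0421%). By WT class, 18 were late rising, 4 still rising, 3 resolving and 1 recovering, and 6 were not called in WT. *Sphk1* differed the most. It changed by 4.24 in WT, 0.93 ± 0.20 (SE) in Map3k8[D270A] and 1.51 ± 0.24 in Elk1-/-Elk4-/- cells. *Edn1*, which encodes the vasoconstrictor endothelin-1, was at 6.55, 7.33 and 7.80 at 1 h and 11.04, 10.98, 11.38 and 10.60 at 2 h in WT and changed by 3.74, 1.68 and 2.53 in the 3 genotypes in that order. The glycosyltransferase gene *B3gnt7* changed by 2.86, 0.89 and 1.59, and *Il2ra* by 4.15, 2.17 and 3.22. The 2 h libraries of *Il2ra* ran from 6.37 to 8.71 in WT.

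Of the resolving genes, *Egr1*, *Egr3* and *Fosb* fell further in WT than in Map3k8[D270A] cells. *Egr1* changed by -2.38 in WT and by -0.95 in the mutant, *Egr3* by -2.90 and -1.85, and *Fosb* by -1.80 and -0.59. The 2 genes that rose less in WT were *Tnn* (tenascin-W) and *Gm8221*. *Tnn* was at 2.53, 2.67 and 2.97 at 1 h and 6.30, 6.43, 4.76 and 6.63 at 2 h, with replicate 6 the lowest at 2 h, and changed by 3.32 against 5.13. Its WT libraries at 1 h were all under the filter value, so in WT it passed through the time at which it was high, and its rise and its difference from the mutants are descriptions. *Gm8221*, annotated as a pseudogene, had a WT 1 h mean under the filter value and its WT libraries overlapped, at 2.84, 3.37 and 3.64 at 1 h and 4.88, 4.86, 4.25 and 3.52 at 2 h. Without 2 h replicate 4 or 5 its WT difference of 1.1 was 0.93 or 0.93, under the threshold.

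**Figure D5:**
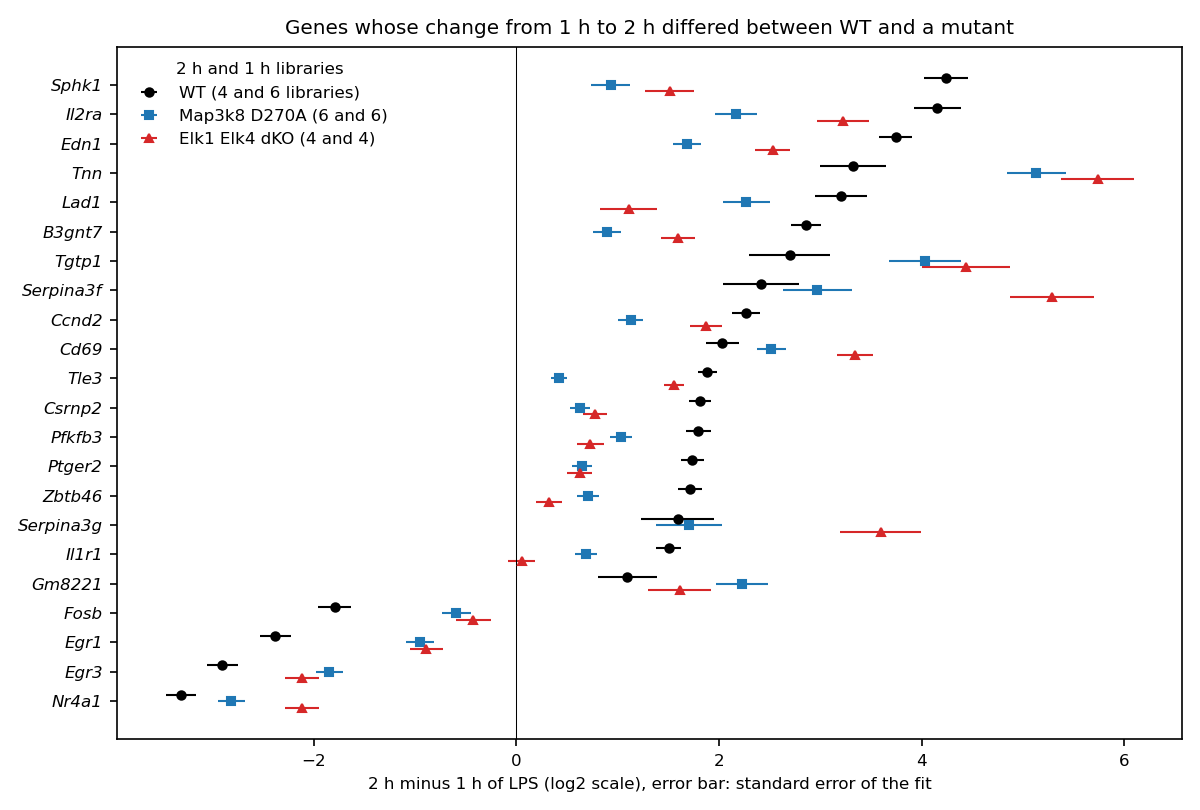
Change from 1 h to 2 h of LPS (log2 scale) in WT, Map3k8[D270A] and Elk1-/-Elk4-/- BMDMs for the 22 named genes whose change differed between WT and at least 1 mutant. Symbols are fitted differences and bars standard errors. *Sphk1* lies at 4.24 in WT and at 0.93 and 1.51 in the mutants.

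Against Elk1-/-Elk4-/- cells the change differed for 39 genes (0.328%), with a greater WT value in 20 (0.168%) and a lower one in 19 (0.16%). *Il1r1*, the IL-1 receptor, was at 3.53, 3.70 and 3.92 at 1 h and 4.94, 5.19, 5.33 and 5.38 at 2 h in WT, and its difference of 1.5 stood beside 0.05 ± 0.14 in the mutant. *Lad1*, an anchoring filament protein gene, was at 3.11, 3.74 and 4.25 at 1 h and 7.97, 5.70, 7.84 and 6.07 at 2 h, with a WT difference of 3.2 against 1.11. *Nr4a1* fell by more in WT, -3.31 against -2.12. By the paper's qRT-PCR its LPS-induced mRNA was lower in these mutant cells than in WT, and the rate of its fall was not tested. *Cd69* rose by less, 2.03 against 3.34, as did *Tgtp1*, an interferon-induced GTPase, with 2.70 against 4.43. *Serpina3f* and *Serpina3g* rose by 2.41 and 1.59 in WT and by 5.28 and 3.59 in the mutant. They and *Tgtp1* belong to families of near-identical copies and are uncertain, and the WT mean of *Serpina3f* was under the filter value before 2 h. Since both interactions use the same WT libraries, their genes were not set against each other as separate evidence.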

How the data were processed

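Per the labels and the authors' methods, total RNA of BMDMs was sequenced and counted per RefSeq gene. The submitters' processing notes name STAR 2.5.1b, RSEM 1.2.29, DESeq2 1.10.1 and mm10. The authors deposited normalised expression on a log2 scale (-2.4 to 19.81 in the libraries used). No read counts were used, which leaves library depth unknown, and no counting interval is given. Library medians at 1 h and 2 h ran from 9.06 to 9.10.

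Of 18098 genes, 11884 reached a linear value of 10 in at least 4 libraries and were tested. limma 3.58.1 (R 4.3.3) fitted 1 mean per group over 62 libraries (22 of WT), without a trend. The fit was tested on simulated data before use. Symbols were matched to RefSeq GRCm38.p6 for 11384 genes, and through synonyms for 454, while 46 had no match. Figures were drawn with matplotlib 3.10.9.

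The members and gene lists were chosen with earlier results of these data known. Named genes were, per class, the 6 with the largest difference among those without overlap, per list up to 4 called members with the largest difference, and per interaction the 4 called genes in each direction that were also called in WT. Uncalled list members are named with their value. Other genes named with values, among them *Fos*, *Tnf*, *Cxcl1*, *Cxcl2*, *Cxcr4*, *Map3k8* and *Rsad2*, were chosen after their values were seen.

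Replicate numbers are shared between times. Deviations from the group means of same-numbered libraries correlated at 0.357, 0.247, 0.437 and 0.555 for replicates 4 to 7, so that the numbers were taken to pair the libraries, from the data and not from a statement in the labels. 2 h replicate 5 correlated best with 1 h replicate 4. With the number as a block, 521 genes were higher and 246 lower. Alternatives covered the libraries fitted, pairing, replicate groups, variance model, filter, scaling, threshold and leaving out each library. Some genes that the rule names are not reported here.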

Additional observations from a re-analysis of the deposited data

Results flagged for a closer look

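Among 230 groups of libraries of the 115 named genes, 12 held a library far from the others, where chance gives about 1 in 20. In 10 of the 12 it was 2 h replicate 7. It was the lowest 2 h library for *Col27a1* (8.19, next 9.38), *Mx2* (11.58, next 12.18), *Mx1* (12.85, next 13.63), *Il27* (10.46, next 11.15), *Nfkbid* (9.66, next 10.14), *Nfkb1* (13.37, next 13.56), *Lipg* (8.65, next 8.97) and *Peli1* (12.88, next 13.03). It was the highest for *Pmaip1* (8.65, next 8.21) and *Sesn1* (10.00, next 9.72). At 1 h, replicate 9 was the highest for *Lpar6* (9.07, next 8.98) and replicate 6 the lowest for *Cpeb2* (10.48, next 10.68).

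The change from 1 h to 2 h in WT minus that in Map3k8[D270A] cells passed the interaction test with positive values for *Sphk1* (3.31), *Edn1* (2.06), *Il2ra* (1.99), *B3gnt7* (1.97), *Tle3* (1.47), *Csrnp2* (1.18), *Ccnd2* (1.14), *Ptger2* (1.09) and *Zbtb46* (1.01). It was negative for *Tnn* (-1.81), *Egr1* (-1.43), *Fosb* (-1.20), *Gm8221* (-1.13) and *Egr3* (-1.06). All WT 1 h libraries of *Tnn* were under the filter on low values, so in WT it passed that filter through the time at which it was high, and its values here and against Elk1-/-Elk4-/- cells are descriptions. The WT means of *Gm8221* and *Serpina3f* at 1 h were also under the filter.

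Against Elk1-/-Elk4-/- cells, whose libraries carry another experiment label, positive values were found for *Sphk1* (2.73), *Lad1* (2.09), *Il1r1* (1.45), *Zbtb46* (1.39), *B3gnt7* (1.26), *Edn1* (1.22), *Ptger2* (1.11), *Pfkfb3* (1.07) and *Csrnp2* (1.03). They were negative for *Serpina3f* (-2.87), *Tnn* (-2.41), *Serpina3g* (-2.0), *Tgtp1* (-1.74), *Egr1* (-1.49), *Fosb* (-1.37), *Cd69* (-1.30) and *Nr4a1* (-1.19).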

How the results depend on the processing

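No result reversed under any alternative run. Counts over all genes and class sizes moved beyond 1.5 times under the choice of threshold and under no other alternative. Counts of called members of single gene lists, all of 5 or fewer genes, also did so 7 times with quantile normalization, 4 with replicates 4 to 6 only, 3 with the filter at 100, 3 without 2 h replicate 7 and 1 each without 1 h replicates 5 and 6. At a difference of 0.693 (the natural log of 2), 922 genes were higher and 701 lower, and the change differed from that in Map3k8[D270A] cells for 102 genes and in Elk1-/-Elk4-/- cells for 109. At 1.5-fold these numbers were 1184, 1006, 159 and 184, and at an adjusted p under 0.05 alone 3983, 3772, 1354 and 1467. As percentages of the 11884 genes, the still rising, late rising, recovering, resolving, newly repressed, further repressed and other falling classes were 0.799, 3.49, 0.126, 0.48, 1.23, 0.0505 and 0.404 at 2-fold, 1.61, 5.55, 0.606, 0.884, 3.81, 0.21 and 0.993 at 0.693, 2.09, 6.88, 0.993, 1.1, 5.62, 0.421 and 1.32 at 1.5-fold and 12.4, 13.9, 7.22, 7.82, 13.5, 9.1 and 1.27 at the adjusted p alone. The share of calls that were higher was 67.1% at 2-fold and 56.8%, 54.1% and 51.4% at these thresholds. Leaving out each library gave 510 to 563 higher and 247 to 277 lower, and 742 to 774 of the 782 calls were kept. Quantile normalization shifted the median difference to -0.046 and kept 688, and 6 named genes were under the threshold, *Hmga2-ps1* (-0.98), *Nfkb2* (0.89), *Tlr2* (0.98), *Ikbke* (0.87), *Sesn2* (-0.96) and *Casp4* (0.92). With the replicate block 744 were kept, the interactions numbered 34 and 41, and *Sesn2* (-0.97) was the only named gene under the threshold. With replicates 4 to 6 only, 701 were kept and *Cd300lb* (-0.97), *Nfkb2* (0.95), *Tlr2* (0.85), *Slc2a6* (0.98), *Sesn2* (-0.93), *Bcl2a1d* (0.88) and *Casp4* (0.92) were under it. Depth is unknown, so low genes such as *Slamf1* carry an error that these values do not show.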

Other observations

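Other falling genes were the longest of the classes, with a median of 14 exons and 59.7 kb, and 23.4% of them (11 of 47) held the AU-rich nonamer. In newly repressed genes, with 11 exons, 12.5% did (18 of 144). Still rising genes had 6.5 exons and 14.7 kb and late rising genes 8 exons and 27.2 kb. No test was run on these values.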
